A study of Mus musculus with 24 samples.

Results

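Lrrc2, Rtp3, 1700061E17Rik, Gm10030, Lrrfip2 and Dclk3 are neighbours on mouse chromosome 9, on the side of Tdgf1 with the higher coordinates, and made up 6 of the 48985 gene rows of the count table. They were chosen by their values in the clones of the recombinations d3 and d6, where the counts assigned to the CAST allele were at or near 0 for most of them. Their values in those 3 clones are therefore given as a description with no test, and tests are limited to the other lines. The d3 and d6 parental lines, with which those clones are compared, are among these other lines. Another 11 annotated genes lie between Tdgf1 and Dclk3.

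RNA was measured in 24 libraries of F121/9 cells, a female embryonic stem cell line whose 2 genomes come from the mouse strains 129/Sv and CAST/EiJ, grown in 2i medium with LIF, in which MEK and GSK-3 inhibitors hold cells in an undifferentiated state. For each of the recombinations d3, d6, i7, i12 and i10 the labels name a parental line, given the genotype control, and recombined clones: d3 clone 12, d3 clone 21, d6 clone 16, i7 clone 7, i7 clone 12, i12 clone 10 and i10 clone 18. Each of these 12 lines was sequenced in 2 replicates, called biological by the submitters, and each recombined line is 1 clone, so that a change seen in 1 clone cannot be told apart from variation between clones. Neither the sequence that was recombined nor the meaning of the letters d and i is given in the labels, and the parental lines were not stated to differ from one another.

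Total counts per library ran from 3286819 to 15581094 and were lowest in i12 and i10. All 8 markers of embryonic stem cells, Pou5f1 and Nanog among them, were counted in every library. They summed to 7434 to 11010 CPM (counts per 1e+06 of the effective library size). Markers of mesendoderm summed to 4.2 to 60.7 CPM, of fibroblasts to 3.92 to 25.7 and of primitive endoderm to 0.925 to 8.66. Neural markers summed to 0.193 to 5.72 CPM and the liver markers Alb and Apoa1 to 0 to 0.104 CPM. Most allelic-ratio calls in d3 clone 21 lay on chromosome 14 (351 of 368) and most of those in i7 clone 12 on chromosome 19 (225 of 252), with 6 and 2 on chromosome 9.

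The 6 genes have no known common function. Lrrc2 encodes a leucine-rich repeat protein studied in heart and skeletal muscle. Rtp3 encodes receptor transporter protein 3, one of a family of membrane-associated proteins that help G protein-coupled receptors, such as odorant and bitter taste receptors, to reach the cell surface, and it is best known as a transcript of the liver. Lrrfip2 encodes a partner of the actin-binding protein Flightless-1 that has been tied to Toll-like receptor and Wnt signalling. Dclk3 encodes a kinase of the doublecortin-like family, described mostly in brain. Gm10030 is annotated as a processed transcript and 1700061E17Rik as an antisense transcript, and neither has an established role. Tdgf1, the gene beside them, encodes Cripto, a co-receptor of Nodal that stem cells express strongly.

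In GENCODE M21 on assembly GRCm38, Lrrc2 (ENSMUSG00000032495.8) lies on the plus strand of chromosome 9 from 110951545 to 110984066. Rtp3 (ENSMUSG00000066319.6) follows on the minus strand from 110984935 to 110990583. On the plus strand and inside Rtp3 lies 1700061E17Rik (ENSMUSG00000102060.1), from 110986201 to 110987804, and Gm10030 (ENSMUSG00000057802.8) runs on the same strand from 110989499 to 111008029. Lrrfip2 (ENSMUSG00000032497.18 in the table) occupies 111117592 to 111225668 and Dclk3 (ENSMUSG00000032500.10) 111439081 to 111489118, both on the plus strand. From the start of Lrrc2 to the end of Dclk3 the stretch spans 537.6 kb. Rtp3 and Gm10030 share 623 exonic bases on opposite strands, 20.4% of the Rtp3 exons and 14.3% of the Gm10030 exons. With 1700061E17Rik, Rtp3 shares 577 exonic bases, 18.9% of its own and 54.1% of the exons of the antisense transcript. The library kit keeps the strand of a read, but whether counting used it is not given in the sources used here, so reads in these shared bases cannot be assigned to one of the 3 genes with certainty.

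Rtp3 and Gm10030 are transcribed away from each other from overlapping 5′ ends, and their counts moved together across the libraries, so the 250 bases before each start are shown. The window of Rtp3, chr9:110989714-110989963 on the minus strand, lies inside Gm10030. It is taken from the RefSeq start at 110989713. GENCODE M21 places the 5′ end of Rtp3 further upstream, at 110990583, so the window also lies inside the GENCODE gene of Rtp3. The window of Gm10030 is chr9:110989249-110989498 on the plus strand, wholly within the Rtp3 gene on the opposite strand. Both are from RefSeq on GRCm38.p6, written 5′ to 3′ along the strand of the gene, and capitals mark AAGGTCA or its reverse complement, a core sequence bound by estrogen-related receptors such as the stem cell factor Esrrb.

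Rtp3: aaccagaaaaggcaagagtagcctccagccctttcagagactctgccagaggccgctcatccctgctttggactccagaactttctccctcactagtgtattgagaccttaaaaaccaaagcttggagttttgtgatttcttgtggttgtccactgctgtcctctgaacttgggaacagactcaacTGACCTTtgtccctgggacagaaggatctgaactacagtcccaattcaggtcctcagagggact

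Gm10030: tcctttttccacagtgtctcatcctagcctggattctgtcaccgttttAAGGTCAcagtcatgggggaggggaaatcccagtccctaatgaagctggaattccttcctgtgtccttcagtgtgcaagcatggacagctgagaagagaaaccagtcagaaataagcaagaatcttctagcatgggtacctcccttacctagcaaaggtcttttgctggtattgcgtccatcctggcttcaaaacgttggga

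The RefSeq start of Rtp3 lies 214 bases inside Gm10030. Of the 6 genes, 4 had a promoter entry (Lrrc2, Rtp3, Gm10030 and Lrrfip2), and 5 motifs were searched on both strands of the 250 bases. Letters that belong to more than 1 motif were counted for each. The core AAGGTCA was found at Rtp3, from 64 bases before the start, and at Gm10030, from 202 bases before it. Of 27025 promoter windows of this length, 4.05% held it. CCAAT was found at Rtp3, from 24 bases before the start, and is in 34.5% of windows, and TATAAA was found at Lrrc2, from 64 bases before, and is in 13% of them. In 1 of the 2 overlapping windows of Lrrfip2 GGGCGG was found (32.9% of windows), and the octamer ATGCAAAT, in 1.61% of windows, was found at none of the 4 genes. The window of Rtp3 held 1 CpG, that of Gm10030 3, that of Lrrc2 8 and those of Lrrfip2 29 and 30, against a median of 6 over all windows.

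Lrrc2 was the most abundant of the 6 per length of exon. Over the 18 libraries outside the d3 and d6 clones its median level was 13.7 CPM per kb of exon (range 8 to 17.01), that of Rtp3 2.78 (1.35 to 8.54) and that of Lrrfip2 2.47 (1.37 to 3.62). Dclk3 followed at 1.26 CPM per kb (0.628 to 2.46), Gm10030 at 0.484 (0.303 to 1.14) and 1700061E17Rik at 0.368 (0 to 1.23). In this order of levels the range of Lrrc2 overlapped only slightly with that of Rtp3, while the ranges of all later neighbours overlapped. Rtp3 had the widest spread relative to its level among the 3 genes with the highest levels. Its total count per library was 24 to 333, that of Lrrfip2 47 to 291, and that of 1700061E17Rik only 0 to 14, so the last gene carries little information.

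The first question was which allele each gene was read from in the 5 parental lines. The genes were chosen in the d3 and d6 clones, but a loss of CAST counts shows only where the parental line has them. The d3 and d6 parental libraries thus had a part in the choice, and the test on the parental lines is not free of it. The clone libraries also enter the model's shared estimate of spread. The counts of Lrrc2 were assigned to both alleles, somewhat more to 129S1, while those of Lrrfip2 were assigned mostly to CAST. In the 10 parental libraries the 129S1 allele held 52.5% to 64.4% of the Lrrc2 counts (median 58.5%) and 8.16% to 21.2% of the Lrrfip2 counts (median 11.01%), so the ranges of these genes do not overlap. The 129S1 to CAST ratio was on average 0.55 on the log2 scale for Lrrc2 (SE 0.0839, adjusted p = 7.07e-06) and -2.93 for Lrrfip2 (SE 0.151, adjusted p = 3.99e-13), by the quasi-likelihood test of edgeR, with Benjamini-Hochberg adjustment over the 10795 genes that averaged 10 or more counts on each allele. So 2 of the 2 members tested were called, in opposite directions, where 69.2% of all genes tested were called and the median ratio over them was 0.03. Lrrc2 had more 129S1 counts in 10 of 10 parental libraries and Lrrfip2 more CAST counts in 10 of 10. In the i7, i12 and i10 parental lines the 129S1 share of the summed counts was 58.05%, 63.9% and 61.2% for Lrrc2. For Lrrfip2 it was 15.2%, 9.82% and 10.4%.

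The remaining 4 genes had too few counts for that test and are described by their summed parental counts. Rtp3 had 74 counts from 129S1 and 727 from CAST over the 10 parental libraries, a 129S1 share of 9.24% (95% Wilson interval 7.42% to 11.4%). Gm10030 also had more CAST counts, 122 against 41, a 129S1 share of 25.2% (19.1% to 32.3%), and 1700061E17Rik had 28 against 3 (9.68%, 3.35% to 24.9%). Dclk3 had the opposite tilt, with 276 counts from 129S1 and 58 from CAST, a share of 82.6% (78.2% to 86.3%). These intervals, and all others given here on counts, cover counting error only. Rtp3, 1700061E17Rik, Gm10030 and Lrrfip2 thus had most of their counts on CAST and Lrrc2 and Dclk3 most on 129S1. How reads without an informative variant were treated is not given in the sources used here. A share may also carry the number and mappability of strain variants in a gene, for Lrrc2 and Lrrfip2 as well, which was not tested. In the libraries of the d3 and d6 clones, described below, the 129S1 share was 18.8% to 34.7% for Lrrfip2 and 99.5% to 100% for Lrrc2.

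**Figure D1:**
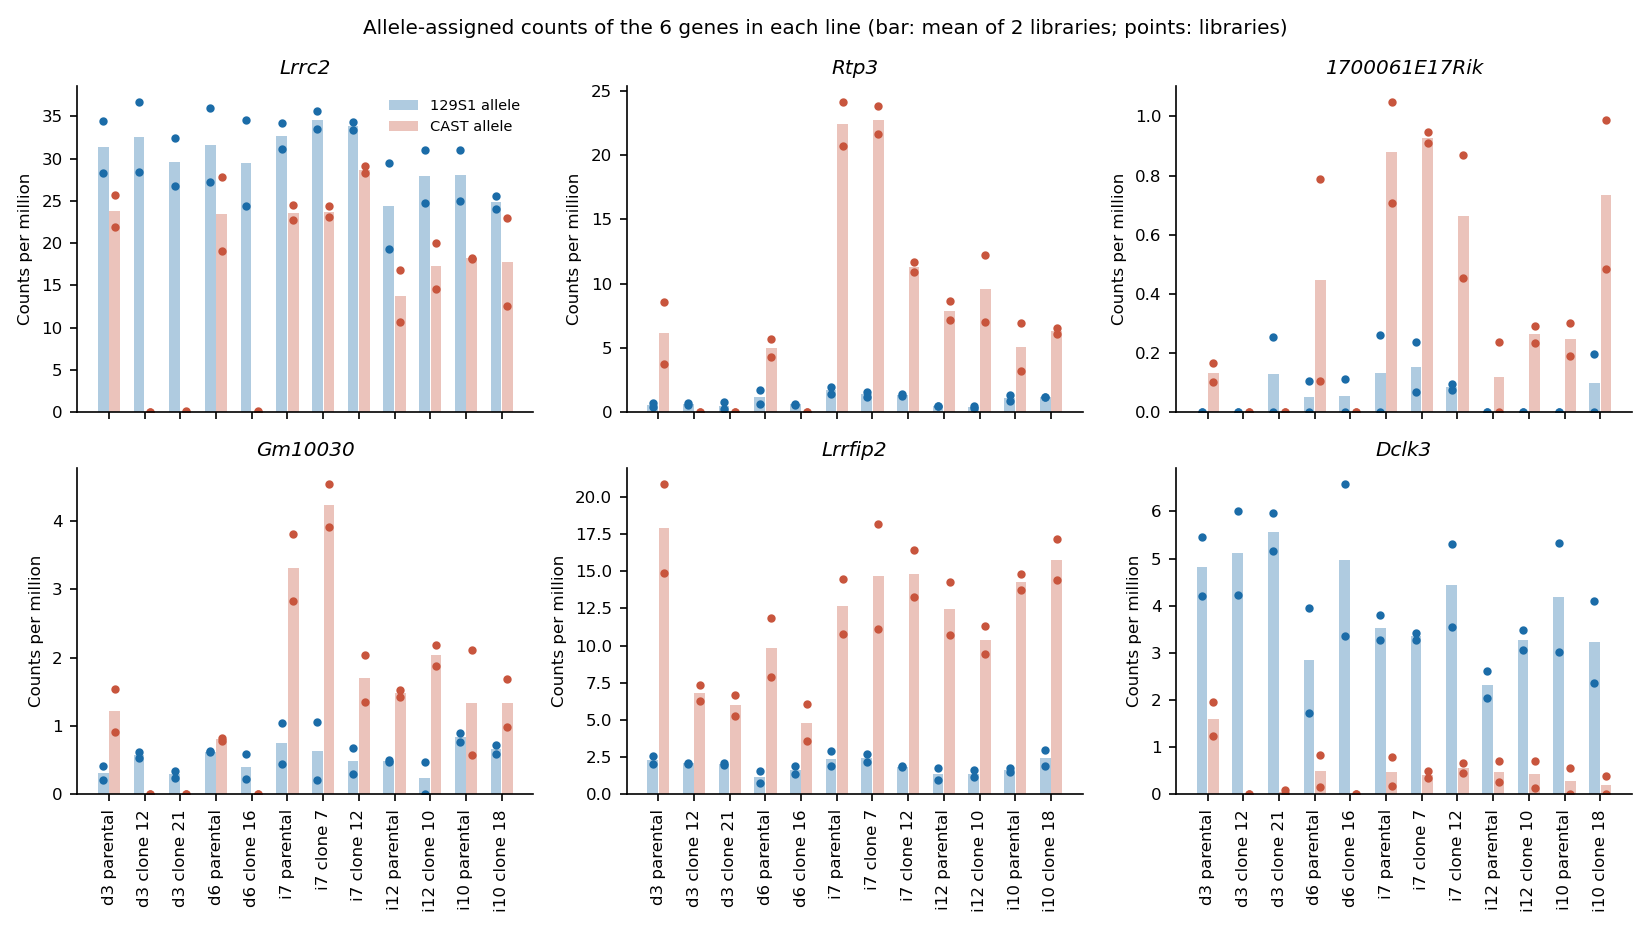
CPM assigned to the 129S1 allele (blue) and the CAST allele (red) for the 6 genes in the 12 lines; bars are means of 2 libraries and points are the libraries. In the d3 and d6 clones the red points of Lrrc2, Rtp3, Gm10030 and Dclk3 lie at or near 0, those of Lrrfip2 lie between 3.58 and 7.34, and the red points of Rtp3 reach 24.2 in the i7 parental line.

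In the clones of d3 and d6, whose values chose the genes, the CAST counts of Lrrc2 were nearly gone. The parental libraries of d3 had 311 and 213 such counts and those of d6 had 268 and 121. Clone 12 of d3 had 1 and 0, clone 21 of d3 had 0 and 2, and clone 16 of d6 had 0 and 1. All 6 clone libraries lie far below all 4 parental libraries. After scaling for depth, 0.159% of the parental CAST counts of Lrrc2 were left in d3 clone 12 (95% exact conditional interval 0.00401% to 0.887%), 0.348% in d3 clone 21 (0.0420% to 1.26%) and 0.183% in d6 clone 16 (0.00462% to 1.02%). The 129S1 counts of Lrrc2 stayed at 93.7% to 103% of the parental level in these 3 clones, and its total counts at 53.7% to 58.1%. The 2 clones of d3 share their parental libraries, so these values are not independent. In bulk RNA, fewer cells that express a gene and less RNA per cell cannot be told apart.

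Rtp3 had 0 CAST counts in all 6 libraries of these clones. The parental libraries had CAST levels of 3.72 and 8.53 CPM in d3 and of 4.26 and 5.67 CPM in d6. Against a floor of 3 counts over both libraries of a clone, the CAST allele of Rtp3 was at least 51.4-fold lower in d3 clone 12, at least 46.8-fold lower in d3 clone 21 and at least 36.1-fold lower in d6 clone 16. Exact conditional intervals that also carry the counting error of the parental counts have lower 95% limits of 41.2-fold, 37.6-fold and 28.7-fold. Its 129S1 counts were few, 3 to 9 per clone library and 5, 7, 6 and 11 in the parental libraries, and the 2 ranges overlap. Its total counts stood at 9.50% of the parental level in d3 clone 12 (95% interval 5.28% to 16.0%), 7.81% in d3 clone 21 (3.94% to 14.1%) and 10.6% in d6 clone 16 (5.58% to 18.7%), a smaller remainder than that of Lrrc2.

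Gm10030 and 1700061E17Rik, which overlap Rtp3, also had 0 CAST counts in these 6 libraries. Gm10030 had 26 CAST counts over both d3 parental libraries and 13 over both of d6, which makes it at least 10.4-fold, 9.52-fold and 6.09-fold lower in clones 12 and 21 of d3 and clone 16 of d6, with lower 95% limits of 7.9-fold, 7.2-fold and 4.28-fold. From 129S1 it had 7 counts in the parental line of d3, 15 in clone 12 and 7 in clone 21, and 10 counts in both lines of d6. For 1700061E17Rik the parental CAST counts summed to 3 in d3 and 6 in d6, at or close to the floor, so the depth does not allow a statement on its loss.

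Dclk3, the last gene of the stretch, had almost no CAST counts in these clones and 129S1 counts at or above the parental level. The CAST counts per parental library were 15 and 19 for d3 and 8 and 1 for d6, and over both libraries 0 were left in d3 clone 12, 1 in d3 clone 21 and 0 in d6 clone 16. That is at least 13.6-fold lower in d3 clone 12 and at least 4.22-fold lower in d6 clone 16, with lower 95% limits of 10.5-fold and 2.78-fold. In d3 clone 21 it is 2.68% of the parental level (95% interval 0.0659% to 16.0%). The 129S1 counts of Dclk3 were 105% of the parental level in d3 clone 12 (80.3% to 137%), 117% in d3 clone 21 (89.5% to 152%) and 173% in d6 clone 16 (123% to 246%). In d6 the level from 129S1 was 3.95 and 1.73 CPM in the parental line and 6.59 and 3.35 CPM in the clone, so the values of the libraries overlap.

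Unlike Lrrc2, Rtp3, Gm10030 and Dclk3, Lrrfip2 kept part of its CAST counts in these clones. For d3 the parental libraries had 180 and 203 of them, those of clone 12 had 111 and 70, and those of clone 21 had 82 and 62. For d6 the numbers were 114 and 50 before and 82 and 32 in clone 16. Scaled for depth, 39.3% was left in d3 clone 12 (95% interval 32.7% to 47.0%), 34.3% in d3 clone 21 (28.1% to 41.6%) and 49.5% in d6 clone 16 (38.6% to 63.2%). In CPM every clone library lies below every parental library of the same recombination, and the highest library of d6 clone 16 (6.07 CPM) lies closest to the lowest d6 parental library (7.87 CPM). The 129S1 counts of Lrrfip2 were at 87.5% to 128% of the parental level, with each interval including 100%. Its total counts stood at 45.2% of the parental level in d3 clone 12, 40.5% in d3 clone 21 and 58.0% in d6 clone 16. Whether all counts assigned to CAST in these clones come from the CAST allele, given the limit on allele assignment above, was not tested. The share of 129S1 in its counts was 11.8% in the parental line of d3, 23.3% and 25.4% in d3 clones 12 and 21, 10.9% in the d6 parental line and 24% in d6 clone 16, where the share in the Lrrc2 counts was 99.7% to 99.9%.

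On the side of lower coordinates, Tdgf1 kept 8.33% to 9.68% of its parental CAST counts in these clones, more than the at most 1.26% that the intervals of Lrrc2 allow. The nearest protein-coding gene beyond it with a mean of at least 50 counts, Als2cl, kept 14.1% to 21.9%. Beyond Dclk3 the nearest such gene was Pdcd6ip, from 113651744 to 113708259, whose CAST counts were 98.6% to 117% of the parental level. Where between Dclk3 and Pdcd6ip the low CAST counts end was not resolved by genes with that many counts.

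**Figure D2:**
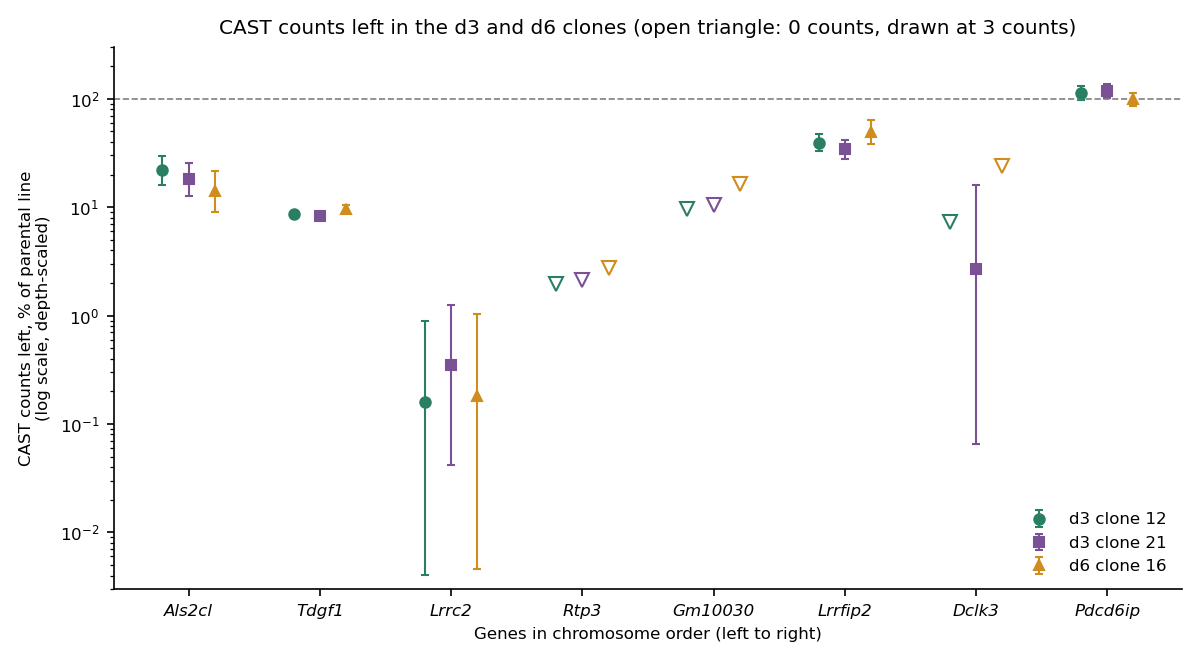
CAST counts left in clones 12 and 21 of d3 and clone 16 of d6 as a percentage of the parental line (log axis, scaled for depth), with 95% exact conditional intervals; open triangles stand for 0 counts and are drawn at the floor of 3 counts. Lrrc2 lies below 1%, Rtp3, Gm10030 and Dclk3 are at 0 or 1 count, Lrrfip2 lies between 34.3% and 49.5% and Pdcd6ip near the dashed line at 100%; 1700061E17Rik is left out for its low counts.

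The clones of i7, i12 and i10 did not choose the genes, and there they were tested. No gene of the 6 was called in any of these 4 clones against its parental line. In total counts 0 of 24 tests were called by edgeR's quasi-likelihood test at an adjusted p under 0.05 (lowest adjusted p 0.687), and 2 had an unadjusted p under 0.05. DESeq2 also called 0 of the 23 tests it gave a value for. The background was low too, 0.00615% of all gene tests in these comparisons, so a count of 0 is near it. By edgeR 1395 of the 65012 gene tests had an unadjusted p under 0.05, and in CAST counts 1413 of 55804. In CAST counts 0 of 20 tests were called (background 0.106%, 1 with an unadjusted p under 0.05), in 129S1 counts 0 of 20 (background 0.0018%, 0 unadjusted), and in the allelic ratio 0 of 8 (background 0.588%, 0 unadjusted). The median change over the 24 tests was 0.15 on the log2 scale, and the medians over all genes were between -0.01 and 0.01 in the 4 comparisons.

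Lrrc2 and Lrrfip2 had the narrowest ranges over these 4 clones, -0.12 to 0.24 and -0.23 to 0.20 on the log2 scale in total counts, with standard errors of 0.23 to 0.24 and 0.27 to 0.29. The CAST allele of Lrrc2 stood at 24.4 and 23.1 CPM in i7 clone 7 and 29.1 and 28.3 CPM in i7 clone 12, against 22.7 and 24.6 CPM in the i7 parental line. In i12 clone 10 it was 20.1 and 14.6 CPM against 16.9 and 10.7 CPM, and in i10 clone 18 it was 22.9 and 12.6 CPM against 18.3 and 18.1 CPM. No clone of these 3 recombinations thus showed the near absence of CAST counts seen in d3 and d6. Dclk3 ranged from -0.42 to 0.39 with standard errors of 0.44 to 0.51.

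Rtp3 and Gm10030 had lower values in i7 clone 12 than in the i7 parental line in both replicates. Neither passed the test in the model of 24 libraries without a replicate term. With a replicate term edgeR's quasi-likelihood test called Rtp3 (adjusted p = 0.0107), where 1.57% of all gene tests in the i clones were called. The total level of Rtp3 was 26.1 and 22.1 CPM in the i7 parental line, 25.0 and 23.3 CPM in i7 clone 7 and 12.4 and 12.9 CPM in i7 clone 12. The 2 libraries of clone 12 are alike and lie below the other 4. Its log2 change in clone 12 was -0.93 (SE 0.376, adjusted p = 0.687), and in i7 clone 7 it was 0.00 (SE 0.370). With edgeR's quasi-likelihood model fitted to only the libraries of the comparison, the change of Rtp3 in i7 clone 12 was -0.92 with an adjusted p of 0.0469. That passes the threshold, but the share of all genes called in that fit was not computed, so the call has no background beside it. Gm10030 changed by -0.88 (SE 0.406, adjusted p = 0.789) from 4.06 ± 1.12 to 2.19 ± 0.224 CPM (SD, n = 2).

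In i7 clone 12 the difference of Rtp3 lay in its CAST counts, as most of its counts do. The CAST level was 24.2 and 20.7 CPM in the parental line and 10.9 and 11.6 CPM in clone 12, which is -0.99 on the log2 scale (SE 0.368, adjusted p = 0.479). The 129S1 level of Rtp3 was 1.97 and 1.41 CPM against 1.45 and 1.29 CPM, a log2 change of -0.29 (SE 0.519). The SE on the 129S1 allele is too large to tell whether the alleles changed unequally, and the ratio was not tested for Rtp3 because of its low 129S1 counts. In i12 clone 10 and i10 clone 18, Rtp3 changed by 0.24 (SE 0.411) and 0.30 (SE 0.431).

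**Figure D3:**
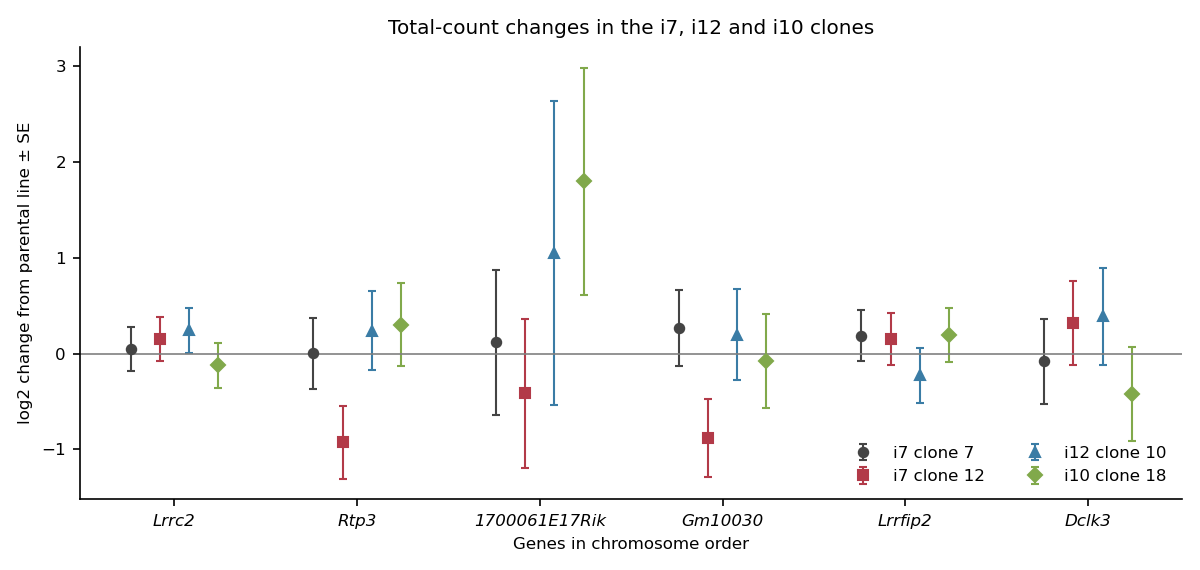
Log2 change of total counts from the parental line in i7 clone 7, i7 clone 12, i12 clone 10 and i10 clone 18 for the 6 genes, with bars of 1 standard error from the fit of 24 libraries. Most points lie within 0.5 of 0; Rtp3 and Gm10030 lie at -0.93 and -0.88 in i7 clone 12, and the bars of 1700061E17Rik are wide.

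Clones of 1 recombination were compared to see whether they differ at these genes. Between i7 clone 12 and i7 clone 7, 0 of 6 tests were called by edgeR's quasi-likelihood test without a replicate term (lowest adjusted p 0.383). DESeq2 called 0 of the 5 it gave a value for. In edgeR 2 of the 6 had an unadjusted p under 0.05. The background was 0.0923% of all genes called, and 1347 of 16253 genes had an unadjusted p under 0.05. The 2 members with such a p were Gm10030 and Rtp3, at -1.14 (SE 0.403, adjusted p = 0.383) and -0.93 (SE 0.375, adjusted p = 0.491). Clones 12 and 21 of d3 chose the genes, so their difference is a description with no test: clone 21 minus clone 12 was -0.13 for Lrrc2 (SE 0.230) and -0.15 for Lrrfip2 (SE 0.274).

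The 5 parental lines were compared with one another, as lines that carry the control genotype. Rtp3 differed among them and the other 5 genes did not pass the test in the model without a replicate term. Its total level was 26.1 and 22.1 CPM in the i7 parental line, 7.61 and 9.17 CPM in i12, 4.13 and 9.25 CPM in d3, 4.57 and 7.85 CPM in i10 and 4.88 and 7.40 CPM in d6. Both i7 libraries lie above the other 8, and the ranges of the remaining 4 lines overlap. In edgeR's quasi-likelihood F test of any difference Rtp3 had an adjusted p of 0.00887, and 6.64% of all genes were called. Gm10030 followed with an adjusted p of 0.101, and the other 4 genes had adjusted p of 0.209 to 0.327.

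The call of Rtp3 rested on the i7 parental line. Without that line the adjusted p was 0.203, and without its replicate 1 it was 0.0901. In pairs of parental lines, the log2 difference of Rtp3 from the i7 line was -1.85 in d3 (SE 0.390, adjusted p = 0.0216) and -1.98 in d6 (SE 0.398, adjusted p = 0.0231), and i7 exceeded i10 by 1.98 (SE 0.413, adjusted p = 0.0279) and i12 by 1.52 (SE 0.400, adjusted p = 0.0578). The other 6 pairs of lines had changes between -0.46 and 0.46. In CAST counts alone the test of any difference gave Rtp3 an adjusted p of 0.0105 and in 129S1 counts alone 0.223. Of all genes 4.79% were called in CAST counts and 5.09% in 129S1 counts. The i7 lines also had the highest mean levels of Tdgf1, 2394 ± 195 CPM in the parental line against means of 1302 to 1752 CPM in the other 4 (SD, n = 2). The libraries overlap: replicate 2 of the i10 parental line, whose SD was 795.5, had 2315 CPM, and replicate 2 of the i7 parental line 2256 CPM. Whether the levels of Rtp3 and Tdgf1 are linked was not tested.

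Gm10030 had the pattern most like that of Rtp3 over all 24 libraries, which include the clones that chose both genes. Among 16253 genes the log2 CPM of Gm10030 had the highest Pearson r with that of Rtp3, 0.961. Nsl1, a kinetochore gene on chromosome 1, was also among the first 3 with 0.859. The d3 and d6 clones form a cluster of their own at the low end and the i7 lines one at the high end, so r was also taken without them. It was 0.896 for Gm10030 in the 18 libraries outside the d3 and d6 clones and 0.656 in the 12 of these outside i7, and for Nsl1 0.712 and 0.631. In those 12 libraries Klk8, ranked 4 over all 24, had a higher r than Gm10030, 0.729. The ranking over all genes was not repeated there. Rtp3 and Gm10030 share exonic bases, so part of their counts can be the same reads, and all libraries share the scaling.

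**Figure D4:**
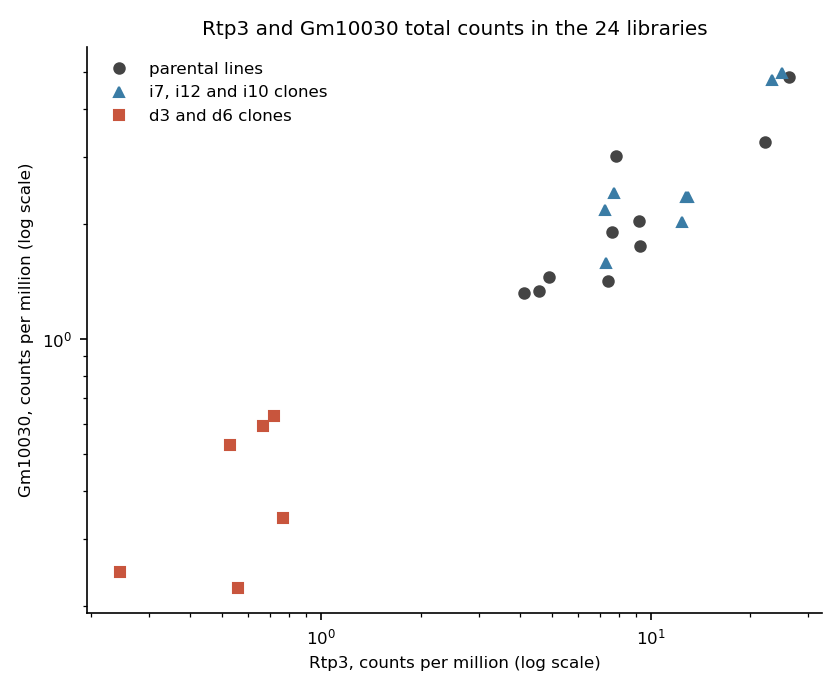
Total CPM of Rtp3 and Gm10030 in the 24 libraries (both axes log), by kind of line. The 6 libraries of the d3 and d6 clones lie at 0.245 to 0.766 for Rtp3 and the other 18 at 4.13 to 26.1, and the highest values of both genes are from the i7 parental line and i7 clone 7.

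For Lrrfip2 the genes most alike over the 24 libraries were less close, with r of 0.78 for Rps20, a ribosomal protein gene on chromosome 4, and 0.744 for Orai3, a calcium channel gene on chromosome 7. Outside the d3 and d6 clones they were 0.697 and 0.492. With Rtp3, Lrrfip2 had r of 0.738 over all 24 libraries and 0.0874 over the 18 outside those clones. These values are descriptions, with no p.

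Genes related to the 6 by family or partnership were followed in the i7, i12 and i10 clones as a list of 17: the receptor transporters and receptor expression enhancers (Rtp1, Rtp2, Rtp4 and Reep1 to Reep6), the paralogue and partners of Lrrfip2 (Lrrfip1, Flii, Myd88, Dvl3 and Ctnnb1) and the doublecortin family (Dclk1, Dclk2 and Dcx). Rtp1, Rtp2, Dclk1 and Dcx had too few counts to be tested. Of 52 tests on the other 13 genes, 0 were called higher and 0 lower by edgeR (0.00615% over all genes). In 1 test the unadjusted p was under 0.05, against 1395 of 65012 tests over all genes, and the median change was -0.05 on the log2 scale. Among the parental lines 1 of the 13 was called, Lrrfip1, the paralogue of Lrrfip2 (adjusted p = 0.00271 by edgeR's F test), a share near the 6.64% called over all genes.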

How the data were processed

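The authors deposited raw counts, whole numbers per gene with 1 column for the 129S1 and 1 for the CAST allele of each library, per the file headers. The RNA was polyadenylated and the kit strand-specific, with single-end reads, per the labels' protocols. The submitters' processing notes name mm10, STAR and SAMtools. The counting program, its annotation and its use of strand are not given in the sources used here. Gene identifiers were matched to GENCODE M21 (48838 of 48985 without the version). The allele columns were added for total counts.

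Tests used edgeR 4.0.16 in R 4.3.3: TMM, the filterByExpr filter (16253 genes in total counts) and the quasi-likelihood test, in 1 model of 24 libraries with 12 group terms, called at a Benjamini-Hochberg adjusted p under 0.05 over all genes tested. All 6 genes passed the filter in total counts, 5 in each allele (not 1700061E17Rik) and 2 in the ratio. The ratio fit held both columns of each library. DESeq2 1.42.0, other filters, a replicate block and leaving out libraries were alternatives, and the fits were tested on simulated data. Figures and intervals were made with Python 3.11.15. The planned test between the d3 clones is given as a description, because those clones chose the genes. The genes named are the 6 members, Tdgf1, the nearest well-counted gene on each side, the genes most like Rtp3 and Lrrfip2, and listed relatives if called. The members and lists were chosen with earlier results of these data known. For 1 more gene picked by this rule nothing is reported here.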

Additional observations from a re-analysis of the deposited data

How the results depend on the processing

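With the replicate number within each recombination added as a term (a replicate block), calls in total counts among the 24 tests of the i7, i12 and i10 clones went from 0 to 1, Rtp3 in i7 clone 12 (-0.92, adjusted p = 0.0107), and in CAST counts from 0 to 1 (Rtp3, adjusted p = 0.0109), where 1.57% and 1.51% of all gene tests were called under the block. Calls between the i7 clones went from 0 to 2 (Rtp3 and Gm10030, adjusted p 0.00662 and 0.0352), with 9.76% of all genes called. Those among the parental lines went from 1 to 5, all members but 1700061E17Rik, with 50% of all genes called. The labels do not say that equal numbers were handled together. Replicate differences correlated over genes with r of 0.403 to 0.706 between groups of 1 recombination (9 pairs, median 0.555) and -0.22 to 0.637 between the others (57 pairs, median 0.213).

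Fitted to only the libraries of the comparison, 1 of 21 tests in the i clones was called, Rtp3 in i7 clone 12. The share of all genes called in those fits was not computed. Among the parental lines 0 of 5 members tested were called in 129S1 counts only, where 5.09% of all genes were called. In the allelic ratio 0 of 2 were called, where 1.29% of all genes were. Without the i7 parental line 0 of 6 were called, and the share over all genes is not given here. These settings were chosen after seeing the data, and the counts of 0 in 129S1 and in the ratio are near those shares. With each library left out in turn, 0 to 1 members were called. Members with an allele bias in the parental lines were 5 of 5 where a mean of 3 counts on each allele was enough. They were 1 of 1 where 30 were required, as the limit sets how many members are tested. The share of all genes called at either of these limits is not given here. In the test reported above that share was 69.2%, so these counts do not set the members apart from other genes. The other counts of calls were the same as reported under every alternative run, leave-one-out included. Of 246 recomputed log2 changes of members in the i7, i12 and i10 clones, 233 moved by less than 1 SE, 9 by more and 4 became called. Libraries were not left out for the d3 and d6 clones against their parental lines, which have no test. At the depth of i12 and i10, 1700061E17Rik had 1 to 8 counts per line, and changes of its level were not detectable.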
